A study of Mus musculus with 18 samples.

Results

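The Egr, Fos and Jun genes are 10 transcription factor genes: Egr1, Egr2, Egr3, Fos, Fosb, Fosl1, Fosl2, Jun, Junb and Jund. Their mRNAs were read on Illumina mouse whole-genome bead arrays from C2C12 myotubes, multinucleate muscle-like cells formed from a mouse myoblast line. The members were taken by gene symbol in the array platform's probe annotation, and 13 of the 45281 probes carried the symbol of 9 of the 10 genes. No probe carried the symbol Fosl1, so that gene was not analysed here. All cultures were in DMEM with 2% horse serum. The groups were myotubes given 1 uM dexamethasone (Dex, a synthetic glucocorticoid) for 6 h (4 arrays) or 24 h (5 arrays), and myotubes given the vehicle ethanol at 0.01% of the medium volume for 6 h (4 arrays) or 24 h (5 arrays). All samples came from 1 cell line, and nothing in the labels says that replicates were separate cultures. P-values therefore reflect array-to-array spread alone, possibly technical.

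Immediate-early genes are switched on by growth factors, serum and stress without new protein synthesis, through MAP kinases acting on the serum response factor SRF and its ternary complex partners and on CREB. Egr proteins are zinc finger factors that bind GC-rich sites. Fos and Jun proteins are leucine zipper factors that pair as AP-1. The glucocorticoid receptor, which Dex activates, is known to interfere with AP-1 at the protein level.

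Promoters are shown for Egr2 and Fos because Egr2 gave the clearest fall of the 9 genes while Fos, a classic gene of the same serum response, was not called. The sequences are RefSeq promoter windows of assembly GRCm38.p6, from 250 bases before to 50 bases after an annotated start, on the plus strand, 5′ to 3′. Capitals mark CArG boxes (the SRF site), CRE core sites (TGACG, the core of the CREB site) and TATA boxes (TATAAA).
Egr2, chr10:67537316-67537615: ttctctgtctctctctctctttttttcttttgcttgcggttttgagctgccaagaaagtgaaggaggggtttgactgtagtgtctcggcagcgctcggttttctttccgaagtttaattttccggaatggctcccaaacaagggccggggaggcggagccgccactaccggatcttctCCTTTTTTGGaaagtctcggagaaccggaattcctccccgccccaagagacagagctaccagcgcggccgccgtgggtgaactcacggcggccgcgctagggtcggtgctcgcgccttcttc
Egr2, chr10:67537619-67537918: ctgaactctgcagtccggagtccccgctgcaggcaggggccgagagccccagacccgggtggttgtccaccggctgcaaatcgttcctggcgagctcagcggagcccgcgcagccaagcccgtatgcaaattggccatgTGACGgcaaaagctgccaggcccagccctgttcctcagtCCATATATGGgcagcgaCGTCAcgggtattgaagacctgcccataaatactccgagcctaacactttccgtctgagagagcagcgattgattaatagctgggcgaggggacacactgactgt
Fos, chr12:85473640-85473939: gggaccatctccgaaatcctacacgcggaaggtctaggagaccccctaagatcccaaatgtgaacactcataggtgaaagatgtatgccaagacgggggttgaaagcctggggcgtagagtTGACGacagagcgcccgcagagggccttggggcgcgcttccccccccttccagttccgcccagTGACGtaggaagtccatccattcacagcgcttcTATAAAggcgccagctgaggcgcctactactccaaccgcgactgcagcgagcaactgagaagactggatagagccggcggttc

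Windows were read for 7 of the members, 11 windows in all, on both strands. None was read for Egr1, Egr3 or Fosl1, so 2 of the 3 called genes are missing here. The CArG box was searched by its consensus and occurred in 1.63% of all 32851 windows of this length. Of the 5 Egr2 windows, 4 held a CArG box, but the last 3 windows overlap and share the same box. The Egr2 windows printed above held boxes of different sequence. In both windows the box spanned positions -72 to -63, counted from the annotated start at 0. The second of these windows also held CRE core sites at -111 to -107 and, on the minus strand, at -55 to -51. The Fos window held CRE core sites at -129 to -125 and -66 to -62 and a TATA box at -33 to -28, and no CArG box lay within it. The Fosb, Fosl2, Jun, Junb and Jund windows held no CArG box either. CRE core sites also lay in the Fosb window at -60 to -56 and in the Junb window at -106 to -102. The Junb window held a TATA box at 0 to 5. Sequence more than 250 bases before a start was not read, so a CArG box farther upstream, of Fos or any other member, would be missed. These windows therefore do not show that Fos lacks the SRF site. Whether the motifs bear on the Dex effects was not tested. CRE core sites occurred in 20.8% and TATA boxes in 13.6% of all windows. No member window held a full CRE (TGACGTCA, 1.79% of all windows), an AP-1 site (TGANTCA, 7.81%) or the receptor motif AGAACA (19%). An Egr site (GCGNGGGCG, 5.55%) was found in the Fosb and Fosl2 windows. These matches are letters in a window, not measured binding.

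Values are the intensities deposited by the authors, in arbitrary brightness units, and log2 fold changes are Dex over ethanol from limma across all probes. A probe was called at an adjusted p under 0.05 (Benjamini-Hochberg over 45281 probes), and a gene with several probes is represented by its brightest. Array medians were 99.8 to 100.4 at 6 h and 85.2 to 86.8 at 24 h, so levels of the times were not tested against each other. The deposited arrays varied around their group means along fewer directions than their number allows, with 4 directions nearly empty, 1 at 6 h and 3 at 24 h. The fit therefore counted 10 residual degrees of freedom in place of 14. At 24 h the Dex and ethanol arrays of the same number deviated from their group means in opposite ways, most for numbers 1, 2 and 3 (r = -0.914, -0.755 and -0.744 across probes), and the Egr results at 24 h are given below with and without each of these pairs. Known glucocorticoid-induced genes served as a check of the labels, and 5 of 6 rose at both times, Fkbp5 by 3.93 and 3.40, Tsc22d3 by 1.69 and 1.43 and Per1 by 1.27 and 1.35 on the log2 scale at 6 h and 24 h. Sgk1 and Dusp1, given below, were the other 2 that rose. Zbtb16, at the array median, was not called (-0.03 and 0.18). All 11 measured myotube markers of 12 listed were above 1.5 times the array median at both times, as were 4 of 6 measured fibroblast and 4 of 6 measured undifferentiated myoblast markers at 6 h, and 3 and 3 of these at 24 h.

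All 3 Egr genes were lower with Dex at both times, and no Fos or Jun gene was called. At 6 h, 3 of the 9 measured genes were called, Egr1, Egr2 and Egr3, all lower, where 4.34% of all 19057 genes were called (1.93% lower, 2.41% higher) and 3.04% of all probes. At 24 h the same 3 genes were called, all lower, against 8.58% of all genes (4.23% lower, 4.34% higher) and 6.28% of all probes. No member was called higher by limma at either time, and at an unadjusted p under 0.05 it was 1 gene each time, Jund. The median log2 fold change of the 9 genes was -0.04 at 6 h and -0.17 at 24 h, beside medians of 0.00 and -6.3e-05 over all genes. Bright genes were called more often: among the 9528 genes above the median brightness 8.29% were called at 6 h and 15% at 24 h. Since RNA was taken from whole cultures, less mRNA per cell and fewer cells of a type cannot be told apart.

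**Figure D1:**
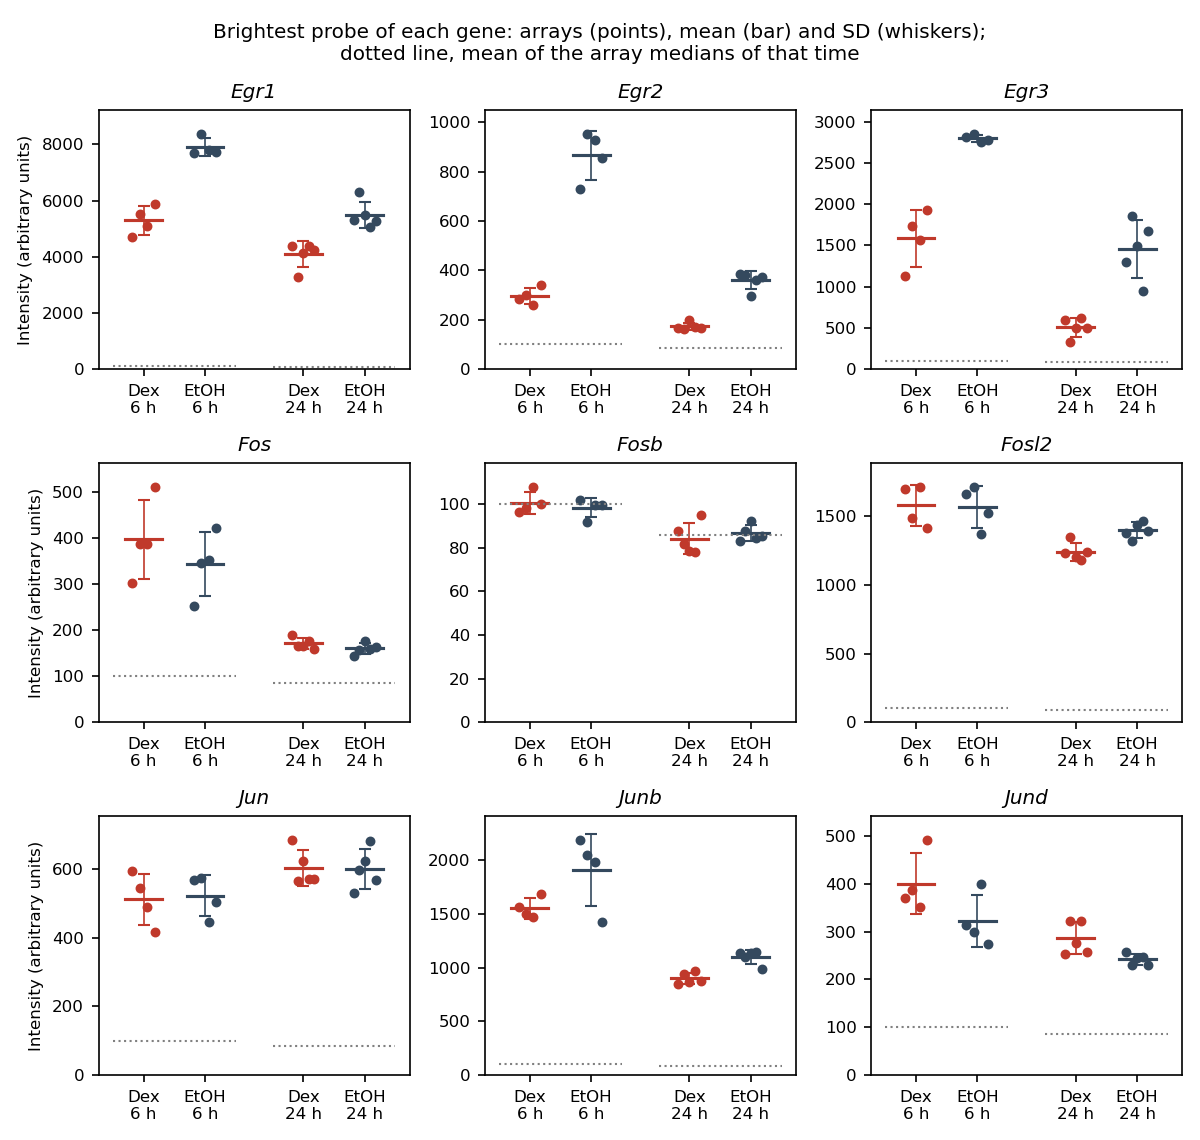
Intensity of the brightest probe of each of the 9 measured genes on every array (linear axis from 0, arbitrary units), with Dex left of ethanol (EtOH) at 6 h and at 24 h; points are arrays, bars group means, whiskers SD and dotted lines the mean array median of that time. The Dex arrays of Egr1, Egr2 and Egr3 lie below all ethanol arrays at both times, while those of Fos, Fosb and Jun are mixed with them.

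Egr2, known for its part in Schwann cell myelination, changed most at 6 h. Its intensities were 284.6, 302.5, 259.9 and 340.4 in Dex myotubes at 6 h, against 730.7, 953.1, 927.0 and 856.2 in ethanol myotubes. At 24 h they were 167.3, 161.1, 197.7, 172.6 and 166.9 with Dex, against 386.3, 380.3, 296.8, 362.9 and 372.6 with ethanol. All Dex arrays lay below all ethanol arrays at both times. Groups without overlap, in either direction, were seen for 10.9% of all genes at 6 h and 16.3% at 24 h. The means were 297 ± 33.9 with Dex and 867 ± 99.5 with ethanol at 6 h (SD, n = 4 each), and 173 ± 14.3 with Dex and 360 ± 36.3 with ethanol at 24 h (SD, n = 5 each). Egr2 fell by 1.55 on the log2 scale at 6 h (SE 0.10, limma adjusted p = 2.06e-10), which put the Dex level at 34.3% of the ethanol level. It fell by 1.05 at 24 h (SE 0.09, limma adjusted p = 1.94e-08), to 48.2% of the ethanol level. The Egr2 effects at the 2 times differed by 0.49 (SE 0.14), which was not called (limma adjusted p = 0.0962). Without ethanol replicate 1 at 6 h that difference was 0.57 and was called (limma adjusted p = 0.0279), as it was without Dex replicate 4 at 6 h (0.56, limma adjusted p = 0.0363).

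Egr3, a relative required for muscle spindle development in mice, had 2 probes. Its bright probe read 1125.7, 1738.4, 1561.7 and 1935.7 in Dex myotubes at 6 h, against 2817.7, 2853.8, 2753.8 and 2775.7 in ethanol myotubes. At 24 h it read 591.5, 324.8, 494.4, 623.4 and 504.8 with Dex, against 1301.8, 1858.5, 1492.4, 945.1 and 1676.9 with ethanol. The groups did not overlap at either time, and at 6 h the Dex arrays were the more scattered ones. Egr3 fell by 0.84 on the log2 scale at 6 h (SE 0.19, limma adjusted p = 0.00853), to 55.7% of the ethanol level. At 24 h it fell by 1.52 (SE 0.17, limma adjusted p = 8.82e-07), to 35.0% of the ethanol level. The 6 h call was lost with limma's trended and robust prior (adjusted p = 0.158). The Egr3 effect at 24 h minus that at 6 h was -0.67 (SE 0.25, limma adjusted p = 0.243), which was not called. The other Egr3 probe lay at the array median, at 106.9 to 125.2 with Dex and 107.4 to 116.5 with ethanol at 6 h, and at 81.9 to 92.6 with Dex and 84.4 to 111.4 with ethanol at 24 h. Its log2 fold changes of 0.01 and -0.10 were not called, and averaging both probes gave smaller values for the gene, -0.42 at 6 h and -0.81 at 24 h, both called.

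Egr1, the most widely studied Egr factor, had 1 probe. Its intensities were 4691.6, 5519.7, 5084.9 and 5872.3 with Dex at 6 h, against 7685.6, 8372.3, 7794.7 and 7721.2 with ethanol. At 24 h they were 4399.9, 3285.9, 4143.6, 4373.7 and 4243.0 with Dex, against 5302.2, 6291.5, 5486.6, 5059.2 and 5275.0 with ethanol. Neither time showed an overlap of the groups. Egr1 fell by 0.58 on the log2 scale at 6 h (SE 0.10, limma adjusted p = 4.29e-04), to 66.8% of the ethanol level, and by 0.43 at 24 h (SE 0.09, limma adjusted p = 0.00251), to 74.4%. The Egr1 difference between the times, 0.15 (SE 0.13), was not called (limma adjusted p = 0.690). Without both 24 h arrays numbered 1, the 24 h log2 fold changes were -0.47 for Egr1, -1.01 for Egr2 and -1.61 for Egr3. Without both numbered 2 they were -0.30, -1.01 and -1.27, and without both numbered 3, -0.43, -1.17 and -1.50. All 3 genes stayed called each time, Egr1 with the highest adjusted p (limma, 0.0152 without both numbered 2).

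**Figure D2:**
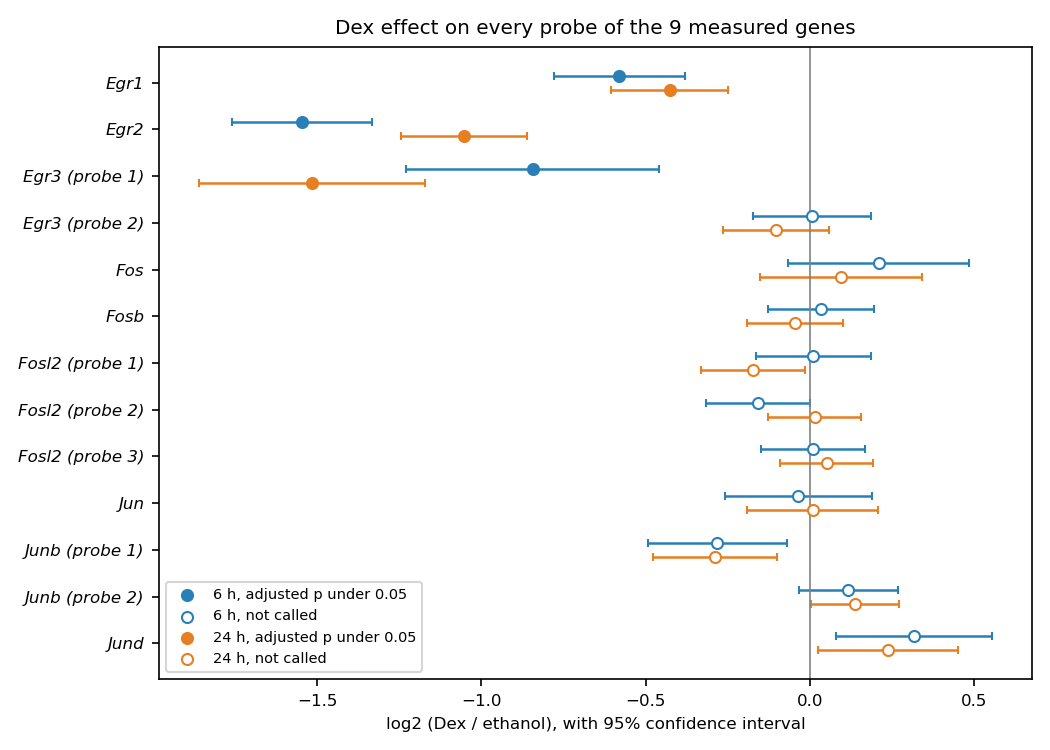
Log2 fold change of Dex over ethanol with its 95% confidence interval for all 13 probes of the 9 genes, at 6 h (upper bar of each pair) and 24 h (lower bar); filled points passed the adjusted p of 0.05. Only Egr1, Egr2 and the bright Egr3 probe are filled, all left of 0 at both times.

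Fos, the founding Fos gene, read 303.0, 388.2, 388.0 and 512.4 with Dex at 6 h, against 253.2, 347.2, 351.9 and 423.2 with ethanol. The groups overlapped over most of their range. At 24 h it read 189.7, 166.3, 165.1, 176.2 and 159.2 with Dex, against 144.8, 156.4, 176.9, 160.2 and 164.4 with ethanol, again overlapping. The log2 fold changes of Fos were 0.21 at 6 h (95% interval -0.07 to 0.48, limma adjusted p = 0.563) and 0.09 at 24 h (-0.15 to 0.34, limma adjusted p = 0.733). The 6 h interval does not reach the fall of any Egr gene.

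Fosb, which encodes a factor that lasts in neurons in its truncated form, lay at the array median. It averaged 101 ± 5.15 with Dex and 98.4 ± 4.40 with ethanol at 6 h (SD, n = 4 each), and 84.2 ± 7.14 with Dex and 86.7 ± 3.66 with ethanol at 24 h (SD, n = 5 each). A change in Fosb was not detectable at this signal. Fosl2, which encodes the Fos relative Fra-2, had a bright probe and a pair of probes at the array median. The bright probe averaged 1580 ± 150 with Dex and 1569 ± 154 with ethanol at 6 h, a log2 fold change of 0.01 (95% interval -0.17 to 0.19, limma adjusted p = 0.982). At 24 h Fosl2 read 1231.0, 1347.0, 1205.8, 1180.7 and 1238.6 with Dex, against 1379.6, 1317.9, 1438.2, 1464.0 and 1395.4 with ethanol. Dex replicate 2 and ethanol replicate 2 alone made the groups overlap. The value at 24 h, -0.17 on the log2 scale (SE 0.08), was not called (limma adjusted p = 0.202). In all, 5 of the 13 probes lay between 0.970 and 1.12 times the array median at both times, and the other 8 at 1.93 times or more.

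Jun, the founding Jun gene, read 594.7, 544.5, 491.8 and 418.8 with Dex at 6 h, against 568.5, 574.7, 446.9 and 504.4 with ethanol, and the groups overlapped. At 24 h it read 687.0, 566.5, 624.6, 572.2 and 571.0 with Dex, against 531.4, 597.1, 625.1, 684.3 and 569.3 with ethanol, again overlapping. Its log2 fold changes were -0.04 (95% interval -0.26 to 0.19, limma adjusted p = 0.943) and 0.01 (-0.19 to 0.21, limma adjusted p = 0.978), so both intervals exclude a fall of the size seen for Egr1, 0.58 and 0.43.

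Junb, which encodes a weaker activator that can oppose Jun, came near a call at 24 h. Its bright probe read 1566.8, 1495.2, 1471.1 and 1688.2 with Dex at 6 h, against 2192.5, 2050.2, 1982.7 and 1427.1 with ethanol. Ethanol replicate 4 lay below all Dex arrays, and the other 3 ethanol arrays above them. The 6 h log2 fold change was -0.28 (SE 0.10, limma adjusted p = 0.175), and without ethanol replicate 4 it was -0.42 and was called (limma adjusted p = 0.00278). At 24 h Junb read 847.4, 944.7, 868.0, 968.4 and 875.5 with Dex, against 1134.4, 1096.4, 1133.9, 1149.2 and 991.1 with ethanol. All Dex arrays lay below all ethanol arrays. The difference at 24 h, -0.29 on the log2 scale (SE 0.09, limma adjusted p = 0.0620), missed the threshold, and it passed without ethanol replicate 5 (-0.33, limma adjusted p = 0.0403) and in the fit with the 4 group means alone (limma adjusted p = 0.0213). It also passed from the 24 h arrays alone, with limma's array weights and after quantile normalization (limma adjusted p = 0.0157, 0.0422 and 0.0220). Like the fit with the 4 group means alone, the fit after quantile normalization made no allowance for the nearly empty directions. With that allowance kept after quantile normalization, Junb was not called. Without both 24 h arrays numbered 1, 2 or 3 it was -0.26, -0.31 and -0.27 (limma adjusted p = 0.139, 0.0859 and 0.141). The second Junb probe, at the array median, gave 0.12 at 6 h and 0.14 at 24 h, neither called. Averaging both Junb probes gave -0.08 at 6 h and at 24 h, not called (limma adjusted p = 0.687 and 0.559).

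Jund, the Jun gene that is on in most resting cells, read 370.7, 386.6, 350.6 and 492.1 with Dex at 6 h, against 314.1, 298.3, 399.5 and 274.2 with ethanol. Only ethanol replicate 3 lay within the range of the Dex arrays. Its log2 fold change was 0.32 (SE 0.12, limma adjusted p = 0.173), and without ethanol replicate 3 it was 0.43 and was called (limma adjusted p = 0.0297). At 24 h Jund read 253.5, 322.7, 276.3, 321.5 and 256.9 with Dex, against 256.8, 229.6, 244.6, 247.5 and 229.1 with ethanol, and was not called (0.24 on the log2 scale, SE 0.10, limma adjusted p = 0.194). A single Dex array was below the highest ethanol array.

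No member was called by limma in the difference of the Dex effects between the times, where 1.19% of all genes (0.603% lower, 0.588% higher) and 0.819% of all probes were called. At an unadjusted p under 0.05 there were 2 members, Egr2 and Egr3, with opposite signs: the Egr2 fall was the smaller at 24 h and the Egr3 fall the larger.

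Around the members, the Egr4 gene and the Nab corepressors, which bind Egr proteins, gave no call among 3 measured of 4 listed. Limma's unadjusted p was under 0.05 for 2 of them at 6 h and 1 at 24 h. With the 4 group means alone and after quantile normalization, 2 of these genes were called lower at 6 h and 1 at 24 h. The replicate block, or leaving out both 24 h arrays numbered 1, gave 1 fall at 6 h. Averaging probes, or leaving out both 24 h arrays numbered 3, gave 1 fall at 24 h. Nab2 had log2 fold changes of -0.22 (limma adjusted p = 0.120) and -0.19 (limma adjusted p = 0.0914), and Nab1 of -0.33 (limma adjusted p = 0.0671) and 0.10 (limma adjusted p = 0.604). Of the other immediate-early genes, 31 of 32 listed were measured, and they moved in both directions. At 6 h, 4 rose and 2 fell (median 0.08), and at 24 h, 3 rose and 3 fell (median -0.06). Beside this list and those below, 4.34% of all genes were called at 6 h and 8.58% at 24 h. Among genes above the median brightness it was 8.29% and 15%. Sgk1, a serum- and glucocorticoid-regulated kinase, rose by 1.71 at 6 h and 1.54 at 24 h on the log2 scale. Zfp36, the mRNA decay factor tristetraprolin, averaged 702 ± 37.3 with Dex and 447 ± 42.0 with ethanol at 6 h (SD, n = 4 each), and rose by 0.65 at 6 h and 0.82 at 24 h. Its relative Zfp36l1 went the other way, with falls of 0.59 and 0.31, the second lost when its probes were averaged (limma adjusted p = 0.0727) and without ethanol replicate 2 or 3 or Dex replicate 3 (limma adjusted p = 0.0529, 0.0569 and 0.0556), and without both 24 h arrays numbered 2 or 3 (0.0840 and 0.0974). Ier3, a stress-response gene, averaged 1579 ± 222 with Dex and 3025 ± 523 with ethanol at 6 h, and fell by 0.93 at 6 h and 0.89 at 24 h. Klf2 rose by 0.56 at 24 h, and Atf3, a stress-induced leucine zipper factor, fell by 0.67 at 24 h. The matricellular gene Ccn1 (0.38) and the Krüppel-like factor gene Klf6 (0.35) were called higher at 6 h, Klf6 no longer when its probes were averaged (limma adjusted p = 0.426).

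**Figure D3:**
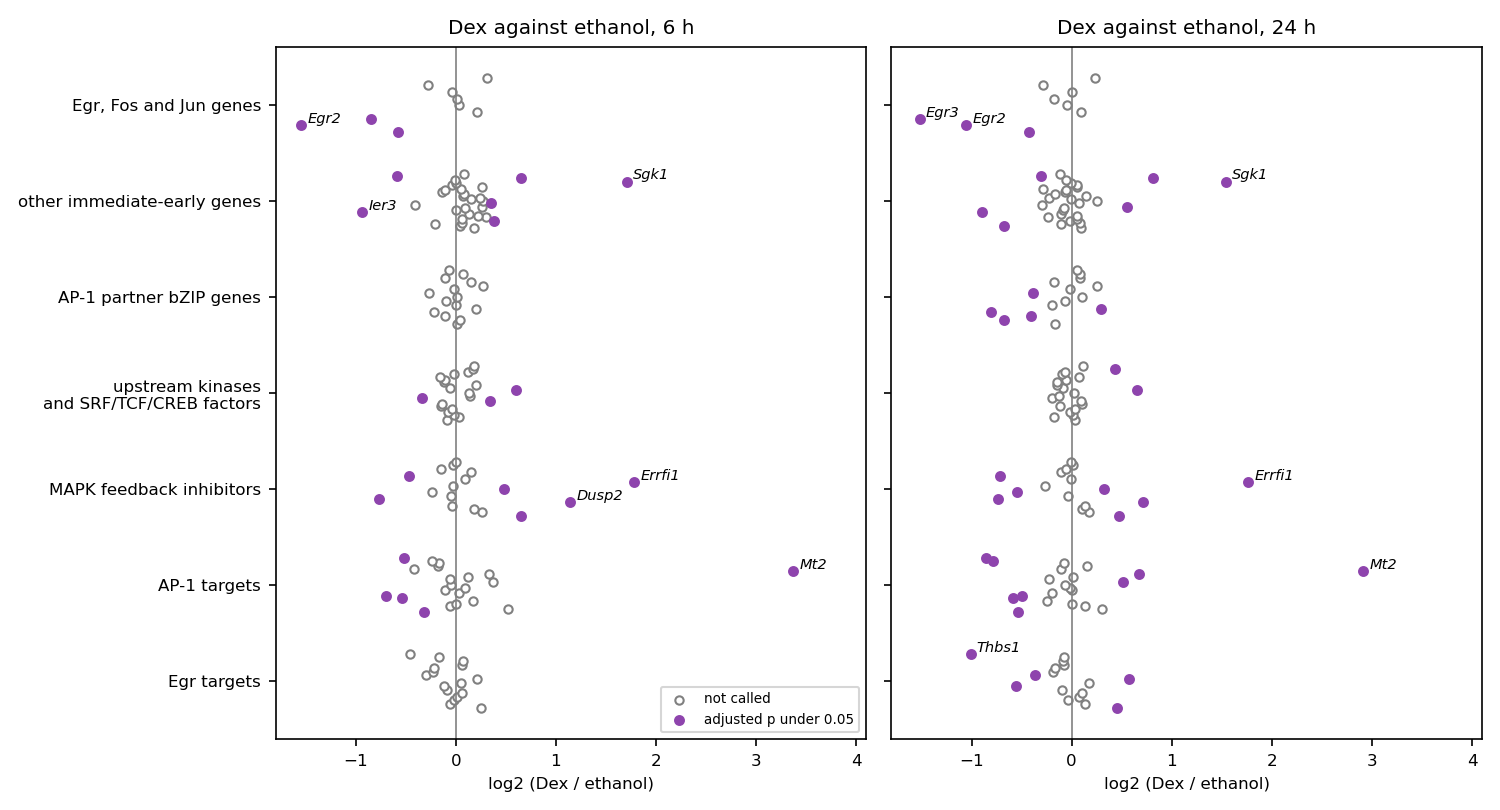
Log2 fold change of Dex over ethanol for the brightest probe of each measured gene, for the 9 member genes and 6 lists of related genes, at 6 h (left) and 24 h (right); filled points passed the adjusted p of 0.05. The Egr genes are the filled points of the top group, all left of 0, while most other lists have called genes on both sides of 0.

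The kinases and factors that act above immediate-early genes come next. Of the kinases, SRF partners and CREB genes, 21 of 28 listed were measured, 2 rose and 1 fell at 6 h, and 2 rose and none fell at 24 h, with a median of -0.02 at both times. The calls, 3 and 2 of 21 genes, stand beside 4.34% and 8.58% called over all genes. At 24 h, 3 of these genes were lower at an unadjusted p under 0.05 in limma. Mapk14, a stress-activated MAP kinase, rose by 0.60 and 0.65, and Map2k1, an activator of the ERK kinases, fell by 0.34 at 6 h. Ep300, a coactivator of CREB, was called higher at 6 h (0.34) and Rps6ka5, a CREB kinase, at 24 h (0.44), and both calls were lost when probes were averaged (limma adjusted p = 0.524 and 0.156).

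MAP kinase feedback genes were called in both directions. Of 17 measured of 18 listed, 4 rose and 2 fell at 6 h (median 0.01), and 4 rose and 3 fell at 24 h (median -0.01). Errfi1, an inhibitor of the EGF receptor, averaged 8216 ± 861 with Dex and 2390 ± 232 with ethanol at 6 h (SD, n = 4 each) and rose by 1.78 at 6 h and 1.76 at 24 h. The phosphatase gene Dusp1 averaged 7657 ± 204 with Dex and 4884 ± 169 with ethanol at 6 h, and rose by 0.65 and 0.47. Dusp2, a nuclear phosphatase gene, rose by 1.14 and 0.71, the second lost with the trended and robust prior (limma adjusted p = 0.0560). Dusp4 fell by 0.76 and 0.74, the first lost when its probes were averaged (limma adjusted p = 0.0634). Dusp6, an ERK phosphatase gene, fell by 0.55 at 24 h, and Rasa1, a Ras GTPase-activating protein gene, by 0.47 and 0.71.

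The leucine zipper genes that can pair with Fos and Jun, 15 measured of 16 listed, had no call by limma at 6 h, with 3 genes at an unadjusted p under 0.05. Using the 4 group means alone, or quantile normalization, 2 rises were called at 6 h. At 24 h, 1 rose, Atf7 by 0.30, and 4 fell, among them Atf5 by 0.80, Atf3 by 0.67 and Atf4, the stress-response factor, by 0.41. The medians were 0.00 and -0.06. Known AP-1 targets, 21 measured of 23 listed, had 1 rise and 4 falls at 6 h and 3 rises and 5 falls at 24 h, with a median of -0.06 at both times. The metallothionein gene Mt2 rose by 3.37 and 2.91 and Mt1 by 0.67 at 24 h, and the gelatinase gene Mmp2 rose by 0.52 at 24 h. Vegfa, the angiogenic growth factor, averaged 2012 ± 116 with Dex and 2880 ± 219 with ethanol at 6 h (SD, n = 4 each) and fell by 0.52 at 6 h and 0.85 at 24 h. Hbegf, an EGF receptor ligand, fell by 0.70 and 0.50, and Gja1, the connexin 43 gap junction gene, by 0.53 and 0.58. The chemokine gene Ccl2, near the array median, fell by 0.54 at 24 h and by 0.31 at 6 h, and its 6 h call was lost without ethanol replicate 3 or 4 or Dex replicate 1 or 2 (limma adjusted p = 0.0515, 0.0997, 0.0716 and 0.0736). That call was also lost from the 6 h arrays alone and with limma's array weights (limma adjusted p = 0.0541 and 0.0618). Timp1, a metalloproteinase inhibitor, fell by 0.78 at 24 h, and its effect differed between the times (limma adjusted p = 0.0261). Known Egr targets, 16 measured of 19 listed, had no call by limma at 6 h, with 6 genes at an unadjusted p under 0.05, and 2 rises and 3 falls at 24 h. With the 4 group means alone and after quantile normalization, 1 rise and 3 falls were called at 6 h. Thbs1 at 6 h (-0.46, limma adjusted p = 0.0684) was also called from the 6 h arrays alone (limma adjusted p = 0.0356), with the replicate block (5.38e-04), without both 24 h arrays numbered 1 (0.0355) and without Dex replicate 1 (0.0141). At 24 h Thbs1, the matrix protein thrombospondin, fell by 1.01, Fn1, fibronectin, by 0.56 and the membrane metalloproteinase Mmp14 by 0.37, while Igf2, a growth factor of myogenesis, rose by 0.57 and the cell death gene Bcl2l11 by 0.45. The calls of Mmp14 and Bcl2l11 were lost when probes were averaged (limma adjusted p = 0.117 and 0.318), and that of Mmp14 also without both 24 h arrays numbered 2 (limma adjusted p = 0.0560). The Egr targets had medians of -0.04 and -0.07. Without both 24 h arrays numbered 1, 2 or 3, no 24 h count of rises or falls in these lists moved by more than 1 gene. Other fits moved some 24 h counts further. With the 4 group means alone and after quantile normalization, the Egr targets had 5 falls and the upstream kinases and factors 2. The other immediate-early genes had 5 falls from the 24 h arrays alone and 6 with the replicate block. Averaging probes left 1 rise each among the Egr targets and the upstream genes.

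Markers of other cells were set beside these values. Of 11 myotube markers none was called at 6 h by limma, with 0 at an unadjusted p under 0.05, and at 24 h Ckm was called higher (0.30) and Myog lower (-0.32). Their summed intensity was 142093 to 148260 with Dex and 140815 to 153644 with ethanol at 6 h, and 100396 to 112757 with Dex and 100006 to 117846 with ethanol at 24 h. Of 6 fibroblast markers, Pdgfra rose at both times (0.59 and 0.60), and at 24 h Lum (-1.09), Col3a1 (-0.36) and Dcn (-0.34) fell. Their sum was 21625 to 24098 with Dex and 21658 to 26343 with ethanol at 6 h, and 10746 to 12262 with Dex and 13063 to 15455 with ethanol at 24 h, so these groups did not overlap at 24 h. The 6 measured myoblast markers of 8 listed had no call by limma, with 3 at an unadjusted p under 0.05 at 6 h and 2 at 24 h, and Pax7 and Myf5, which mark muscle precursors, lay near the array median. Their sum at 24 h was 1242 to 1412 with Dex and 1445 to 1589 with ethanol. The part of fibroblast and myoblast markers in the 24 h results was not tested. No adipocyte marker of 6 and no osteoblast marker of 5 measured exceeded 1.5 times the array median.

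The genes most like Egr2 were sought among 9527 bright genes, by the root mean square difference over the 18 arrays of log2 values centred on the ethanol mean of each time. The nearest was Rerg, a small GTPase gene, at a distance of 0.185. Timp3, a metalloproteinase inhibitor, followed at 0.267, the iron exporter Slc40a1 at 0.280, the semaphorin Sema7a at 0.281 and the aggrecan-cleaving protease Adamts4 at 0.301. Rerg averaged 140 ± 6.98 with Dex and 354 ± 34.3 with ethanol at 6 h (SD, n = 4 each). Its log2 fold changes were -1.34 and -1.03, beside -1.55 and -1.05 for Egr2. No other Egr, Fos or Jun gene was among these 5.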

How the data were processed

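RNA from 18 samples in 4 groups was measured on Illumina mouseWG-6 bead arrays, and each sample was placed by its title. The deposited values are linear probe intensities that the authors made with lumi, per the submitters' processing notes and the design text. The lumi version, background correction and normalization were not given in the sources used here. No detection p-values were used here, so background left in a dim probe understates its change. The number of arrays limits the precision. Triplicates are mentioned in the design text, but the labels number 4 or 5 samples a group, and all were used.

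Of 45281 probes, 34885 had 1 symbol in the platform annotation, 18 several and 10378 none. Symbols were updated to GRCm38.p6 for 34807 probes and kept for 78. The log2 of the intensity (pseudocount 0) was fitted with limma 3.58.1 in R 4.3.3 (lmFit, eBayes). The model had 4 group means and 4 columns for directions that held under 0.01% of the spread around the group means among 1126 probes with a mean log2 above 12. These columns leave the fold changes as they are. The 3 comparisons were Dex against ethanol at 6 h, at 24 h and their difference.

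Besides every probe of the members, the genes named were, per list, comparison and direction, the 3 called with the smallest p, all 6 glucocorticoid check genes and the 5 most like Egr2. Nab1, Nab2, Ccn1, Pax7, Myf5 and the called cell markers were named after their values were seen. The members and lists were chosen with earlier results of these data known.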

Additional observations from a re-analysis of the deposited data

Results flagged for a closer look

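Within-group gaps were checked for 13 probes in 4 groups, 52 tests in all, of which chance marks about 1 in 20. There were 4 results with a sample far from the others, and their source was not tested. In ethanol at 6 h, Egr1 replicate 2 was highest at 8372.3, and the next array read 7794.7. In Dex at 24 h, Egr1 replicate 2 was lowest at 3285.9, and the next read 4143.6. The lowest Egr2 value in ethanol at 24 h was 296.8 (replicate 3), next to 362.9. The dim Egr3 probe was highest at 125.2 in Dex replicate 1 at 6 h, next to 109.3.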

How the results depend on the processing

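The falls of Egr1, Egr2 and Egr3 kept their direction and their call at both times under every alternative run, except Egr3 at 6 h with the trended and robust prior. Over the alternatives Egr1 ranged from -0.63 to -0.52 at 6 h and from -0.47 to -0.30 at 24 h, Egr2 from -1.62 to -1.48 and from -1.17 to -0.99, and Egr3 from -0.95 to -0.42 and from -1.66 to -0.81. No called value of a named gene changed sign, while uncalled values near 0 crossed it, among them Jun, from -0.11 to 0.06 at 6 h and from -0.08 to 0.06 at 24 h. Calls over all probes numbered 1378 at 6 h, 2842 at 24 h and 371 for the difference. With the 4 group means alone they were 2836, 5726 and 1675, with 1 member, Egr2, called in the difference. After quantile normalization, which filled the nearly empty directions so that no column was added, they were 2857, 5770 and 1701, again with 1 member in the difference. Keeping the columns with that normalization, an alternative chosen after seeing the data, gave 1383, 2868 and 371. Leaving out both 24 h arrays numbered 2 or 3 was also chosen after seeing the data and gave 2317 and 2705 calls at 24 h. Fitting the brightest probes only gave 850, 1694 and 232 calls, and averaging the probes of a gene gave 641, 1452 and 115, with fewer features tested in both. Leaving out 1 replicate at a time gave 1130 to 1684 calls at 6 h, 2334 to 2757 at 24 h and 323 to 637 for the difference, with 3 to 4, 3 to 4 and 0 to 1 members called.

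The replicate numbers were used as a block in another fit. Same-numbered Dex and ethanol arrays had correlated deviations of -0.109 to 0.17 at 6 h and -0.914 to -0.181 at 24 h. They were positive for 2 pairs at 6 h and negative for all 5 at 24 h. These signs do not settle whether same-numbered samples were pairs, and the main fit did not treat them as pairs. The fit with the replicate block gave 2310, 4303 and 1254 calls, with 4, 4 and 2 members called: Junb joined the Egr genes at both times (adjusted p = 0.0432 and 0.0108), and Egr2 and Egr3 were called in the difference. Probes near the array median, 5 of 13, limit what can be said of Fosb and of the second probes.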
